A study of Mus musculus with 2 samples.

Results

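The miR-15/16 family was described in hearts of mouse embryos at 13.5 days. Its members were the rows of the deposited count tables whose Ensembl identifiers map to Mir15a, Mir16-1, Mir15b, Mir16-2, Mir497b, Mir195a and Mir195b, which made 7 of 1973 miRNA gene rows. The assay was microRNA-seq, which counts short RNAs, here a size class under 30 nucleotides taken from total RNA. The samples were 2 libraries of healthy B6NCrl hearts from separate biosamples, each of embryos of both sexes combined, under 1 donor record. They form 1 group (n = 2) with no second genotype, treatment or age, so the comparisons below set members against each other within a library. No label says whether the biosamples were separate litters, and the spread between them may be partly technical. In whole hearts, fewer cells of a type and less RNA per cell cannot be told apart.

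MicroRNAs are cut from hairpins in longer primary transcripts, and 1 arm of the hairpin usually becomes the guide that pairs with target messenger RNAs through its seed, bases 2 to 8 from the 5′ end. Members of the miR-15/16 family share a seed and are known to repress cell cycle genes such as Ccnd1, Ccne1 and Chek1 and the survival gene Bcl2. Mir497b, a member here by its row, does not have that seed. In the mouse heart the family is known for restraining cardiomyocyte division, and miR-195 is known to increase when cardiomyocytes leave the cell cycle after birth. Embryonic cardiomyocytes still divide, so these hearts precede that step.

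The mature sequences of the 5p arms are shown because the shared seed defines the family and the remaining bases decide whether a read can be assigned to 1 locus. All sequences are from RefSeq (GRCm38.p6), and capitals mark the seed.
miR-15a-5p: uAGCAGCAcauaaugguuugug
miR-16-5p: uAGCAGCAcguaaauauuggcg
miR-15b-5p: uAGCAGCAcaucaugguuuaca
miR-195a-5p: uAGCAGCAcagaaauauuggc
miR-497a-5p: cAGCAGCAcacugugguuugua
miR-195b: uAGCAGCAcagaaauaguagaa
miR-322-5p: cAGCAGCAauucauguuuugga
Past base 8, compared base by base from the 5′ end, miR-16-5p and miR-195a-5p were the same at 11 of 13 positions, and miR-15a-5p was the same as miR-15b-5p, and as miR-497a-5p, at 10 of 14. miR-16-5p was the same as miR-15a-5p at 8 of 14 positions and as miR-497a-5p at 4 of 14. miR-322-5p, from a cluster on the X chromosome, has the family seed and was the same as miR-15b-5p at 9 of 14 positions past base 8.

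The seed occurred in 11 of 1738 mature miRNA entries of the RefSeq table, at 11 genes. Mir497b was not among these genes. Mir16-1 and Mir16-2 give the same mature 5p sequence of 22 bases. Their hairpins share a run of 23 bases, in capitals here, and differ on both sides of it.
Mir16-1 hairpin: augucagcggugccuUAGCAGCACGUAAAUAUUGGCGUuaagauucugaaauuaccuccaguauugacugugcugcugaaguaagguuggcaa
Mir16-2 hairpin: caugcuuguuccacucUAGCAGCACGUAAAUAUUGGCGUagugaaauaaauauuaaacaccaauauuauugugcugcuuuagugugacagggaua
A read of miR-16-5p therefore fits both loci. The 3p arms, given with their own seeds in capitals, differ between the loci.
miR-16-1-3p: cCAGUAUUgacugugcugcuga
miR-16-2-3p: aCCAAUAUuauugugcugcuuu
The tables list multi-mapping reads as a separate class, 26.9% of all reads in replicate 1 and 28.0% in replicate 2. No source says whether multi-mapping reads also count toward a gene. Those percentages, and the levels per all reads below, take them to count toward none. If so, the rows of Mir16-1 and Mir16-2 hold 3p reads and longer 5p reads, and they are lower bounds on miR-16. The tables do not split a row by arm. Of the other mature arms of the family, none occurred whole in another of the 1005 hairpins of the RefSeq table, which has no hairpin entry for Mir15a.

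6 of the 7 members lie in 3 genomic pairs (mm10 coordinates, 1-based). Mir15a (chr14:61632027-61632110) and Mir16-1 (chr14:61631880-61631972) lie 54 bases apart on the minus strand, in an intron of the noncoding RNA gene Dleu2, whose human counterpart is deleted in leukaemias. Mir15b (chr3:69009772-69009835) and Mir16-2 (chr3:69009902-69009996) lie 66 bases apart on the plus strand in an intron of Smc4, which encodes a condensin subunit that compacts mitotic chromosomes. Mir195a (chr11:70235042-70235135, plus strand) lies 241 bases downstream of Mir497 (chr11:70234717-70234800, plus strand). GENCODE M21 has no transcript that spans either of these hairpins on their strand. Mir497 has no row of its own. The row at that place belongs to Mir497b (chr11:70234692-70234816), on the minus strand. The seventh member, Mir195b (chr2:56785811-56785907, plus strand), stands alone.

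**Figure D1:**
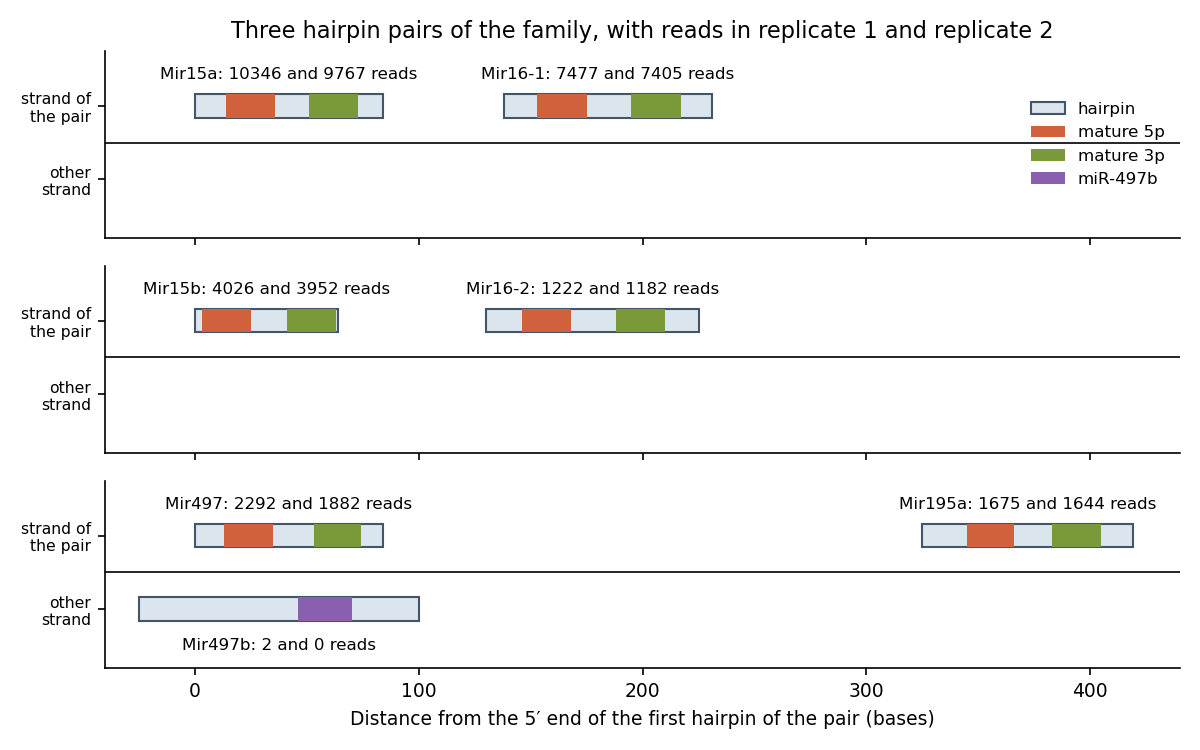
Hairpins (boxes) and mature miRNAs (coloured) of the 3 pairs, by distance in bases from the 5′ end of the first hairpin. Each hairpin carries its reads in replicate 1 and replicate 2, and the 2292 and 1882 reads at Mir497 lie opposite to the Mir497b hairpin, which held 2 and 0.

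Replicate 1 held 5569959 sense counts on miRNA genes and replicate 2 held 6039005. Levels are counts per 1000000 of these (CPM), so 1 read was 0.180 CPM in replicate 1 and 0.166 CPM in replicate 2. A read of this size class covers a whole mature miRNA, so CPM were not divided by length. The labelled tissue was checked against marker miRNAs. Those of heart muscle (Mir208a, Mir208b, Mir499, Mir1a-1, Mir133a-1) took 5.07% of the counts in replicate 1 and 5.34% in replicate 2. Markers of other cell types took more: smooth muscle (Mir143, Mir145a) 8.51% and 9.35%, and endothelium (Mir126a) 7.49% and 6.60%. The smooth muscle sum came almost wholly from Mir143, at 8.43% in replicate 1 and 9.26% in replicate 2. The heart muscle sum came almost wholly from Mir208a, Mir208b and Mir499. Mir1a-1 held 25 counts in replicate 1 and 22 in replicate 2, and Mir133a-1 held 11 and 23, all under 10 CPM. Each has a second locus, Mir1a-2 and Mir133a-2, and reads that fit both loci may lie among the multi-mapping reads. These low counts therefore do not show that miR-1 and miR-133a were scarce.

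Counted by rows, the pair in Dleu2 was the most abundant of the family. Mir15a held 10346 counts in replicate 1 (1857 CPM, exact 95% interval 1822 to 1894) and 9767 in replicate 2 (1617 CPM, 1585 to 1650), a mean of 1737 ± 169.8 CPM (SD, n = 2). Mir16-1 held 7477 counts (1342 CPM, 1312 to 1373) and 7405 counts (1226 CPM, 1198 to 1254), a mean of 1284 ± 82.2 CPM. By rows, of which that of Mir16-1 may be a lower bound, Mir15a lay above Mir16-1 in both libraries. The ranges of the libraries for Mir15a and Mir16-1 did not overlap. Among the 77 rows at 1000 CPM or more they were the only members, at ranks 65 and 71 of all rows. These levels depend on the denominator: per 1000000 of all reads listed, Mir15a stood at 824.

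The pair in Smc4 was lower. Mir15b held 4026 counts (723 CPM, 701 to 745) in replicate 1 and 3952 (654 CPM, 634 to 675) in replicate 2, a mean of 689 ± 48.4 CPM at rank 96. Mir16-2 held 1222 counts (219 CPM, 207 to 232) and 1182 counts (196 CPM, 185 to 207), a mean of 208 ± 16.7 CPM at rank 144. The ranges of Mir15b and Mir16-2 did not come near each other in either library. By its row, which may be a lower bound, Mir16-2 was the lowest of the 5 members at 10 CPM or more.

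Mir195a, the member known from cell cycle exit after birth, held 1675 counts (301 CPM, 286 to 315) in replicate 1 and 1644 (272 CPM, 259 to 286) in replicate 2. Its mean of 286 ± 20.1 CPM placed it at rank 129. Mir195b, which has a closely similar mature sequence on another chromosome, was at 0 counts in each library. With a limit of 3 counts a level of up to 0.539 CPM (replicate 1) or 0.497 CPM (replicate 2) could be present. Mir195a and Mir195b share a run of 16 bases within their mature miRNAs, shorter than either, so a read of a whole mature miRNA fits only 1 of them. Every count of the Mir195 rows lay at the chromosome 11 locus.

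The row of Mir497b had almost no reads on its own strand and many on the other. Its sense counts were 2 in replicate 1 (0.359 CPM, 0.0435 to 1.30) and 0 in replicate 2. Opposite counts were 2292 in replicate 1 (411 CPM, 395 to 429) and 1882 in replicate 2 (312 CPM, 298 to 326), or 99.9% of the row in replicate 1 and all of it in replicate 2. They lie on the strand of Mir497, whose hairpin is inside that of Mir497b, and average 362 ± 70.6 CPM. As a row of its own Mir497 would stand at rank 118, between Mir15b and Mir195a. The 3p arm of Mir497 and miR-497b overlap by 17 bases on opposite strands, in capitals below, so their reads differ in strand but come from the same place.
miR-497a-3p: CAAACCACACUGUGGUGuuag
miR-497b: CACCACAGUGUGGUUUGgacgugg
The 5p arm of Mir497, which carries the family seed, does not overlap miR-497b, which lacks it. At the other 6 member rows the opposite strand held 1 count in all, at Mir195a in replicate 2.

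**Figure D2:**
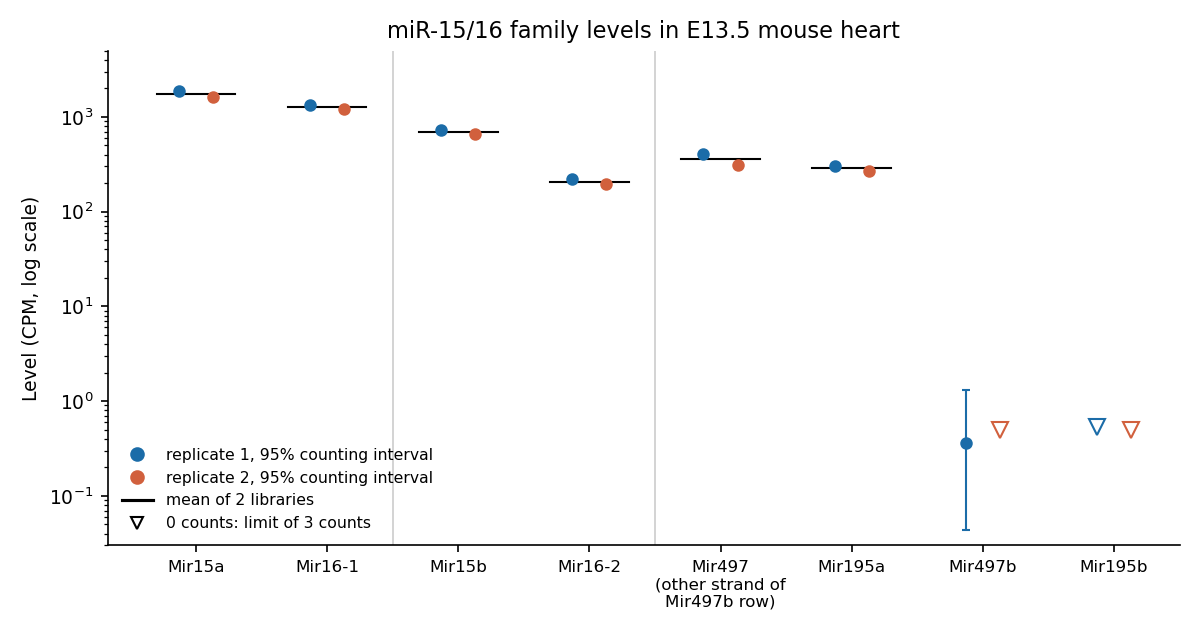
Level of each member in CPM (log axis) in replicate 1 (blue) and replicate 2 (orange), with exact 95% counting intervals and the mean as a line; triangles mark 0 counts at the limit that 3 counts give. The members at 10 CPM or more run from Mir15a at 1737 CPM to Mir16-2 at 208 CPM, and Mir497b and Mir195b lie near or under the limit. The levels of Mir16-1 and Mir16-2 may be lower bounds.

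With Mir497 read from its own strand, the order of the levels was Mir15a, Mir16-1, Mir15b, Mir497, Mir195a and Mir16-2. Every step exceeded its SD over the libraries. The log2 ratios of each to the next were 0.43 ± 0.0489, 0.90 ± 0.00905, 0.94 ± 0.182, 0.32 ± 0.182 and 0.47 ± 0.0149 (SD, n = 2). By spread between libraries, the step from Mir497 to Mir195a was the least certain. Its ratio was 1.37 (exact 95% interval 1.28 to 1.46) in replicate 1 and 1.14 (1.07 to 1.22) in replicate 2. An exact sign-flip permutation test over 2 libraries cannot go below p = 0.5, so these ratios are set against their spread and carry no p-value. That spread cannot show reads missing from both libraries. If multi-mapping reads count toward no gene, the places of Mir16-1 and Mir16-2 in the order are those of lower bounds.

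Within the pairs, the row of the miR-15 hairpin exceeded that of its miR-16 partner at both loci, but by different amounts. Mir15a over Mir16-1 was 1.38 (1.34 to 1.43) in replicate 1 and 1.32 (1.28 to 1.36) in replicate 2. Mir15b over Mir16-2 was 3.29 (3.09 to 3.52) and 3.34 (3.13 to 3.57), a log2 ratio of 1.73 ± 0.0150. The ratio in Smc4 was 2.46 times that in Dleu2, a log2 difference of 1.30 ± 0.0639, far beyond the spread between libraries. The miR-16 side of both ratios is the side whose 5p reads fit both loci. If such reads count toward no gene, the rows give neither the direction nor the size of miR-15 over miR-16 at a locus.

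In the third pair the order of the hairpins depended on the strand read. Mir195a over the sense counts of Mir497b was 838 (231 to 6921) in replicate 1, on 2 counts, and at least 548-fold in replicate 2, against the limit of 3 counts. Mir195a over Mir497 was 0.731 (0.686 to 0.779) in replicate 1 and 0.874 (0.817 to 0.934) in replicate 2, a log2 ratio of -0.32 ± 0.182. By its mean this was the closest to equal of the 3 pairs, beside 0.43 ± 0.0489 for Mir15a over Mir16-1. That order is uncertain, given the SD of 0.182 and a Mir16-1 row that may be a lower bound. The libraries differed most in Mir195a over Mir497.

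The 3 pairs were set beside other close neighbours on 1 strand, hairpins at most 500 bases apart and both at 10 CPM or more. Across the 41 such pairs outside the family the median absolute log2 ratio was 2.98 (quartiles 1.16 and 4.61), and 10 of the 41 differed by less than 2-fold. Among all 44 pairs, from the smallest difference upward, Mir497 and Mir195a took place 6, Mir15a and Mir16-1 place 7 and Mir15b and Mir16-2 place 20. The SD of the ratio between libraries was 0.0489 in Dleu2, 0.0150 in Smc4 and 0.182 at the Mir497 locus, beside a median of 0.154 over the 41 other pairs. This set was formed after the values were seen and is a description. Some of its pairs, like those with a Mir16 row, include a miRNA with more than 1 locus. The ratios and places therefore describe the deposited rows.

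Between pairs, the sum of Mir15a and Mir16-1 was 3.40 times (3.29 to 3.50) that of Mir15b and Mir16-2 in replicate 1 and 3.34 times (3.24 to 3.45) in replicate 2, a log2 ratio of 1.75 ± 0.0156. Against Mir195a and Mir497 it was 4.49 times (4.34 to 4.65) in replicate 1 and 4.87 times (4.70 to 5.05) in replicate 2, a log2 ratio of 2.23 ± 0.0823. Without the Mir16 rows that log2 ratio was 1.43 ± 0.0615. With the sense counts of Mir497b in place of Mir497 it was 3.40 ± 0.0177, and 2.60 ± 0.0385 without the Mir16 rows. Mir15b and Mir16-2 together exceeded Mir195a and Mir497 by 1.32 times (1.27 to 1.38) and 1.46 times (1.39 to 1.52), a log2 ratio of 0.47 ± 0.0978. Without Mir16-2 it was 0.09 ± 0.101, within the spread between libraries. On sense counts it was 1.64 ± 0.00213 with Mir16-2 and 1.26 ± 0.00135 without it.

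Locus against locus, Mir15a was 2.57 times Mir15b in replicate 1 and 2.47 times in replicate 2, a log2 ratio of 1.33 ± 0.0398. The row of Mir16-1 was 6.12 times that of Mir16-2 in replicate 1 (5.76 to 6.51) and 6.26 times in replicate 2 (5.89 to 6.67). Both loci give the same miR-16-5p, whose reads fit both. If such reads count toward no gene, this ratio compares 3p and longer 5p reads, not miR-16-5p. Mir15b was 2.40 times Mir195a in both libraries, and Mir15a was 6.18 and 5.94 times Mir195a.

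**Figure D3:**
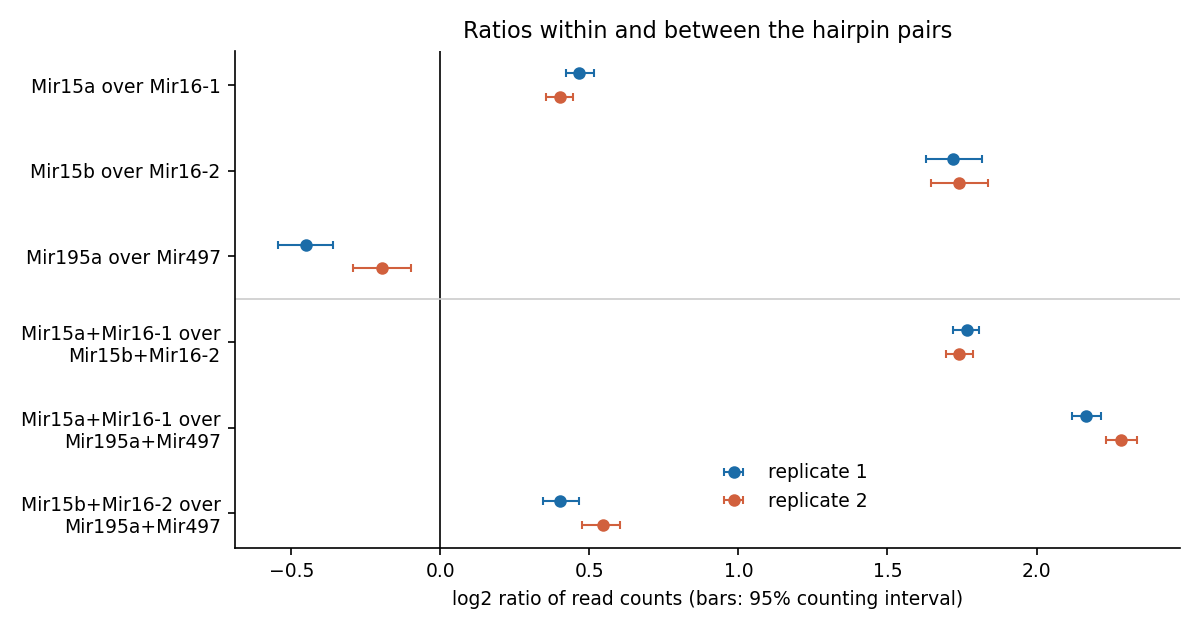
Log2 ratios of read counts within the 3 pairs (top) and between them (bottom), in replicate 1 (blue) and replicate 2 (orange), with exact 95% counting intervals and Mir497 read on its own strand. Mir195a over Mir497 lies below 0, at a mean of -0.32, and the other ratios lie above 0. Those other ratios all include Mir16 rows, which may be lower bounds.

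Counted by its rows, the family as a whole was small beside the sense total. With Mir497 on its own strand, its counts came to 0.485% of the size of the sense total (0.480 to 0.491) in replicate 1 and 0.428% (0.423 to 0.433) in replicate 2, a mean of 0.457% ± 0.0408. The reads of Mir497 are themselves not part of that total. Of the family's counts, 66.2% ± 0.394 came from the pair in Dleu2, 19.6% ± 0.329 from that in Smc4 and 14.2% ± 0.723 from that on chromosome 11. Mir15a gave 38.0% ± 0.322, Mir16-1 28.2% ± 0.716 and Mir15b 15.1% ± 0.289. Mir497 gave 7.88% ± 0.842, Mir195a 6.28% ± 0.120 and Mir16-2 4.55% ± 0.0397. If multi-mapping reads count toward no gene, all these shares leave out the miR-16-5p reads that fit both Mir16 loci. The family's share of the total is then a lower bound.

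Among the rows of genes with the family seed, Mir322 held the most counts. Rows are not split by arm, so its counts may include reads of its 3p arm. Mir322, at rank 3 of all rows, held 77629 CPM in replicate 1 and 90777 CPM in replicate 2. The log2 ratio of the family over Mir322 was -4.20 ± 0.289, so the family's counts were 18.4 times lower. Of all counts at genes with the seed, the family took 5.19% ± 0.979 and Mir322 94.8% ± 0.979. The family's share of these was 5.88% in replicate 1 and 4.50% in replicate 2. Between the libraries Mir322 was lower in replicate 1 (log2 replicate 1 over replicate 2 -0.23) and the family was higher there (0.485% in replicate 1 and 0.428% in replicate 2). Mir6342, Mir6353 and Mir6419, which also have the seed, held 0 counts in both libraries, as did Mir195b. The family's share of the seed depends on how many miR-16-5p reads lie among the multi-mapping reads, which the tables do not show.

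**Figure D4:**
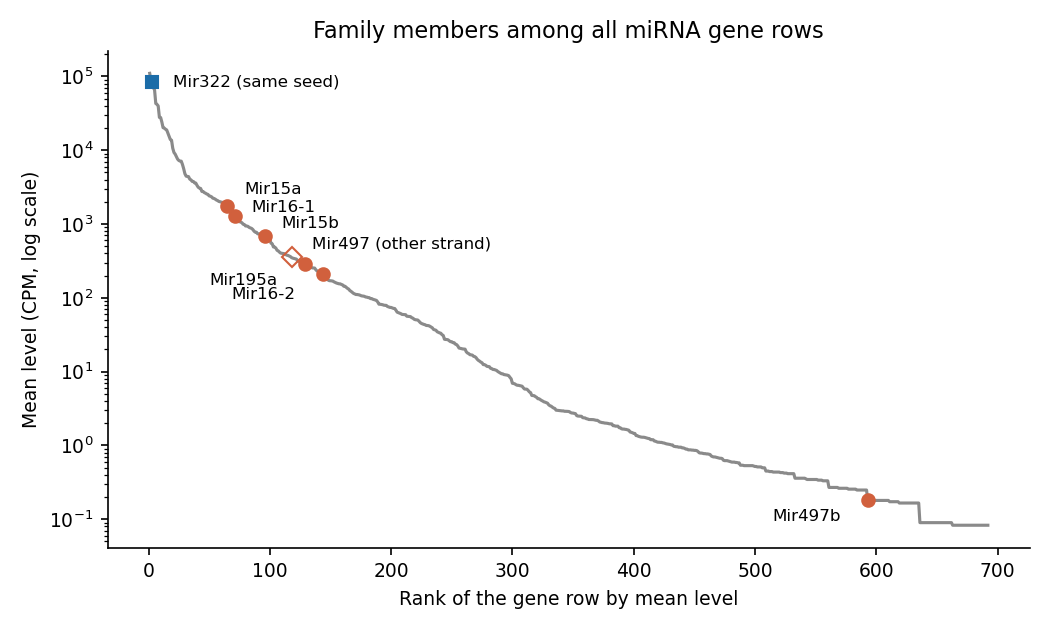
Mean level (CPM, log axis) of every row with a sense count against its rank, with the family in orange and Mir322 in blue. The 5 members at 10 CPM or more lie between ranks 65 and 144, Mir497 on its own strand at rank 118, and Mir497b at 0.180 CPM far down the curve.

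The rows nearest to the members in level were of many kinds. Mir499, a miRNA of heart muscle, stood directly above Mir15a at 1825 ± 281 CPM, and Mir139 below it at 1636 ± 108 CPM. Around Mir16-1 were Mirlet7b (1351 ± 100.1 CPM) and Mir27b (1138 ± 20.9 CPM), and around Mir15b were Mir302d (719.9 ± 114 CPM) and Mir450b (679.8 ± 60.1 CPM). Mir195a stood between Mir25 (292 ± 24.0 CPM) and Mir669o (279 ± 0.696 CPM). Mir16-2 stood between Mir700 (212 ± 21.6 CPM) and Mir215 (186 ± 26.2 CPM). This likeness is in mean level over 2 libraries only, since 1 group gives no pattern across conditions.

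Between the libraries, every measured member was slightly higher in replicate 1. The log2 ratios of replicate 1 over replicate 2 were 0.20 for Mir15a, 0.13 for Mir16-1, 0.14 for Mir15b, 0.16 for Mir16-2 and 0.14 for Mir195a. In a two-sided exact binomial test over 288 genes with Benjamini-Hochberg adjustment, which sets the reads of 1 library against those of the other, with no condition between them, all 5 stayed under an adjusted p of 0.05 (6.20e-22 for Mir15a to 0.00953 for Mir16-2). Of all genes tested, 61.5% had such a p and 43.1% had it with a higher value in replicate 1. None of the 5 reached the ratio of 1.5 that was asked of a call, as 5.90% of genes did.

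The median log2 ratio of all 288 genes was 0.10, so a small positive ratio was common to these tables. Under TMM scaling, which removes it, the ratios were 0.10 for Mir15a, 0.03 for Mir16-1, 0.04 for Mir15b, 0.06 for Mir16-2 and 0.04 for Mir195a. In the exact binomial test only Mir15a then stayed under the threshold (adjusted p = 7.06e-06), and the other 4 lay at 0.288 to 0.512. On total sense counts, where the 5 members lay at 0.13 to 0.20, Mir497 on its own strand had a log2 ratio of 0.40. That was 1.32-fold (exact binomial test, adjusted p = 1.83e-18), and 12.8% of genes reached or passed it. Erythroid markers, also on total sense counts, moved the same way. The 3 rows of Mir144, Mir451a and Mir486 took 0.126% of counts in replicate 1 and 0.0959% in replicate 2 (log2 of the sums 0.39). The 2 leukocyte rows measured took 0.0451% in replicate 1 and 0.0318% in replicate 2 (log2 0.50), and the 5 epithelial rows took 0.186% and 0.146% (log2 0.35). Liver marker Mir122 took 0.0201% in replicate 1 and 0.0591% in replicate 2. Of the marker sets with larger shares, heart muscle (log2 -0.07) and smooth muscle (-0.14) were lower in replicate 1, and endothelium (0.18) was higher. The part of these cell types in the members' ratios was not tested.

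**Figure D5:**
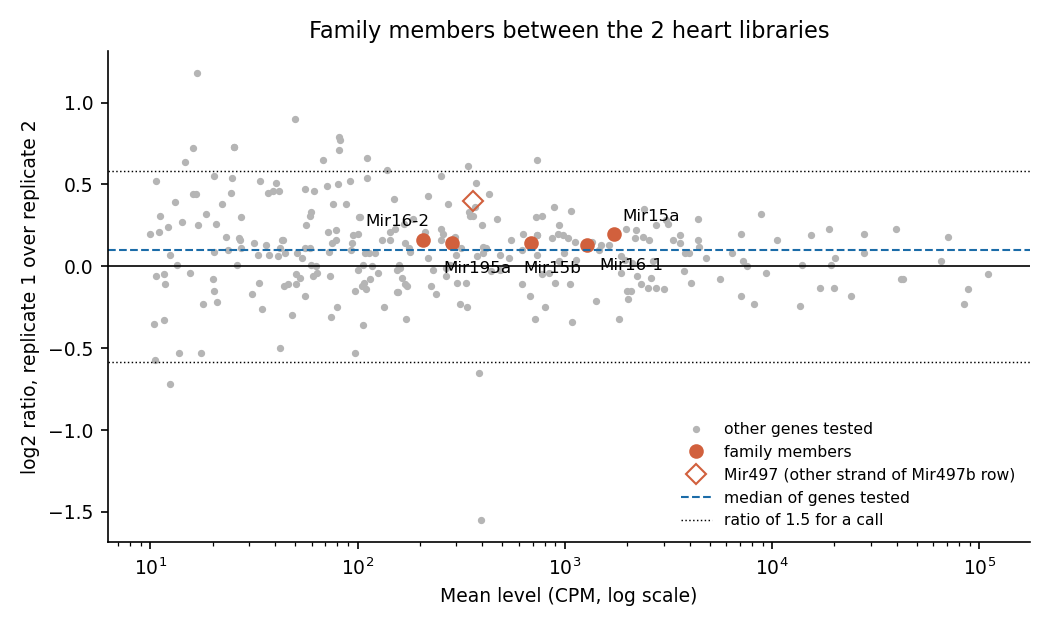
Log2 ratio of replicate 1 over replicate 2 against mean level in CPM (log axis) for 288 genes, with the 5 members in orange and Mir497 as an open diamond. The members lie between 0.13 and 0.20, close to the median of all genes at 0.10 (dashed) and inside the ratio of 1.5 (dotted).

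Other miRNAs known to act on cardiomyocyte division were summed in 2 lists, both above the family, 1 of them through a single gene. A list of miRNAs that promote proliferation, the miR-17 cluster, the miR-302 cluster, Mir199a and Mir204, had 14 of 16 symbols with a row, 11 at 10 CPM or more. Against the family's 0.457%, it took 3.55% ± 0.231 of the counts. A list of miRNAs of cell cycle exit and differentiation, among them Mir1a, Mir133a, Mir29, Mir34a and Mirlet7i, had 12 of 13 with a row, 6 at 10 CPM or more, and took 4.16% ± 0.458. Mirlet7i alone took 3.98% ± 0.452, and the rest of that list 0.185% ± 0.00573, below the family. Between the libraries 0 genes of either list passed both the adjusted p and the ratio of 1.5, as 5.90% of all genes did. By the adjusted p alone (exact binomial test, threshold 0.05), 1 gene of the proliferation list was higher in replicate 1 and 7 were lower. In the exit list 2 were higher and 2 lower. Of all 288 genes, 43.1% were higher and 18.4% lower by that threshold. The median log2 ratio was -0.11 over the tested genes of the first list and 0.01 over those of the second, beside 0.10 over all genes and 0.14 over the members. Several genes of both lists have more than 1 locus, so their sums describe the deposited rows.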

How the data were processed

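The authors deposited whole-number read counts per miRNA gene for each library, aligned to mm10 and counted with GENCODE M4, per the file lists deposited beside them. Which aligner and counter were used is not given in the sources used here. Column meanings were read from the values: counts on both strands, on the gene's strand (sense) and opposite. The 4 read class rows stayed out of library sizes. GENCODE M21, also on mm10, gave symbols and coordinates and matched 1894 of 1973 identifiers.

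CPM used total sense counts. Levels, shares and ratios carry exact Clopper-Pearson 95% intervals, which cover counting error only, since PCR copies are not independent molecules. Libraries were compared by a two-sided exact conditional binomial test per gene at a mean of 10 CPM or more, tested on simulated data. The simulated libraries differed by counting error and set changes only, so other spread between libraries was not covered. A call needed a ratio of 1.5 and an adjusted p under 0.05, with 1 CPM added to both levels. TMM (edgeR 4.0.16) and DESeq2 1.42.0 size factors were alternatives, in R 4.3.3. Python 3.11.15 with scipy 1.17.1 did the rest. Genes named were the members, other genes with the seed and the rows next to each member in level. Members and lists were chosen with earlier results of these data known.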

Additional observations from a re-analysis of the deposited data

Results flagged for a closer look

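Counts on the strand opposite to Mir497b were looked at apart from the main sense counts, and they lay far above the 3 counts that a count of 0 allows. They were 2292 in replicate 1 and 1882 in replicate 2, on the strand of Mir497.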

How the results depend on the processing

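Of 124 values recomputed for 20 results, 91 kept their direction and stayed within their spread or on their side of the threshold, 31 moved and 2 changed sign. With opposite-strand counts at the Mir497b row, and with both strands counted, the Mir497b row stood at 362 CPM and the family share at 0.457%. The log2 ratio over the third pair was then 2.23 for Mir15a with Mir16-1 and 0.47 for Mir15b with Mir16-2, and that of Mir195a over the Mir497b row changed sign to -0.32, against 10.70 on sense counts summed over the libraries. No gene lies opposite to Mir195a or Mir195b, so that alternative was run at Mir497b alone. Per 1000000 of all reads listed, the levels were 824 for Mir15a, 609 for Mir16-1, 327 for Mir15b, 98.5 for Mir16-2 and 136 for Mir195a, and the family share was 0.199%. Without Mir16-1 and Mir16-2, on the sense counts of Mir497b, the share was 0.271% and the between-pair log2 ratios were 1.33, 2.60 and 1.26. With Mir497's strand as well, an alternative chosen after seeing the data, they were 0.307% and 1.33, 1.43 and 0.09. With Mir322 the share was 8.84%. Divided by hairpin length, an alternative chosen after seeing the data, the within-pair log2 ratios were 0.58 in Dleu2 and 2.30 in Smc4 and the between-pair ones 1.41, 3.50 and 2.09. Called genes between the libraries numbered 17, and 45 without a CPM minimum, 6 at 100 CPM and 2 at a ratio of 2, none of them a member under the alternatives run. Leaving out a library gave Mir15a 1617 to 1857 CPM and a family share of 0.397% to 0.444%, and Mir195a over the Mir497b row had no value without replicate 1. No paired analysis was possible because there is 1 group. Depth limits Mir497b and Mir195b, at or under 3 counts.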
